A study of Mus musculus with 32 samples.

Results

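The effect of combined testosterone and oestrogen on the dorsal lateral prostate (DLP) of the mouse was described from 8 RNA sequencing libraries of a series of 32. The DLP is a paired lobe beside the urethra whose ducts secrete into the seminal fluid. Male C57/BL6 mice either carried implants under the skin for 2 weeks, with 25 mg testosterone and 2.5 mg oestrogen (T+E2, libraries 1, 2, 18 and 24) or received no hormone (control, libraries 7, 8, 9 and 10). The labels name no sham implant for the controls and give neither the age of the mice nor whether each library was 1 animal, so the spread between libraries may be partly technical. The anterior prostate (AP) and the prostatic urethra from the same 2 treatments, with 4 libraries in each group, served for comparison. The deposited table held 13780 genes, and the 13108 that reached 1 TPM in 4 or more of the 8 DLP libraries were tested. TPM is transcript abundance corrected for transcript length and scaled to the same total in every library.

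Prostate epithelium depends on androgen. Luminal cells need androgen to make their secretory proteins, and basal cells lie beneath them. Oestrogen acts through its receptor in stroma and epithelium, and it also raises prolactin, a pituitary hormone that signals through Stat5 in the prostate. Implants of both hormones in male mice are used as a model of benign prostatic enlargement with obstructed urine flow.

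The lobe's own markers were present in all 8 libraries. Probasin (Pbsn), the classical androgen-dependent secretory protein, was at 12031 TPM or more in each, and the posterior homeobox gene Hoxb13 was at 233 ± 35.6 TPM in control and 190.3 ± 52.2 TPM after treatment. Transcripts named for the seminal vesicle were also abundant: Svs2 lay between 78309 and 141308 TPM, and the list of such genes took 15.3% to 26.8% of TPM. Mean Svs2 was far lower in control AP (6738 TPM) and control urethra (325 TPM). Sbp, a secretory gene of the ventral lobe, ranged from 52.3 to 47958 TPM in control and from 70.5 to 44602 TPM with T+E2, so libraries held unequal amounts of it in both groups. Skeletal muscle transcripts made up 0.0483% to 0.358% of TPM with T+E2 and 0.0413% to 0.114% in control, highest in T+E2 libraries 24 and 18. Because of these 2 libraries, list counts that moved by over 1.5 times without them are also given without them. Library sums lay between 996830 and 997368 TPM, 12819 to 13140 genes per library reached 1 TPM, and the sequencing depth is unknown.

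Below, a gene is called higher or lower where limma's Benjamini-Hochberg adjusted p over all 13108 genes was under 0.05. Levels are mean ± SD in TPM (n = 4 per group), and fold changes were taken from log2(TPM + 1) values, given with their standard error. Values per library are listed in the order 7, 8, 9 and 10 for control and 1, 2, 18 and 24 for T+E2. In all, 10.7% of tested genes were called, 6.09% higher and 4.63% lower, and 296 of the 1405 changed at least 2-fold. The 4 T+E2 values lay wholly above the control values in 8.92% of genes and wholly below them in 7.41%. The first principal component, with 52.1% of the variance, separated the 2 groups. The median log2 fold change of all genes was 0.02. The last gene called was Taf1a (adjusted p = 0.0498) and the first not called was Rab4b (adjusted p = 0.0501). The split between higher and lower depended on the scaling: 1043 and 1015 genes were called after median-of-ratios rescaling, 1234 and 771 after rescaling without the most abundant genes, and 981 and 1260 after quantile normalization. Rescaling without the most abundant genes left the prostate secretory, seminal vesicle and skeletal muscle lists and Gpx3 out of the library totals. Genes were not ranked by abundance for it. Without control library 7, 574 genes were called higher and 749 lower. Without T+E2 libraries 18 and 24, 717 were called.

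**Figure D1:**
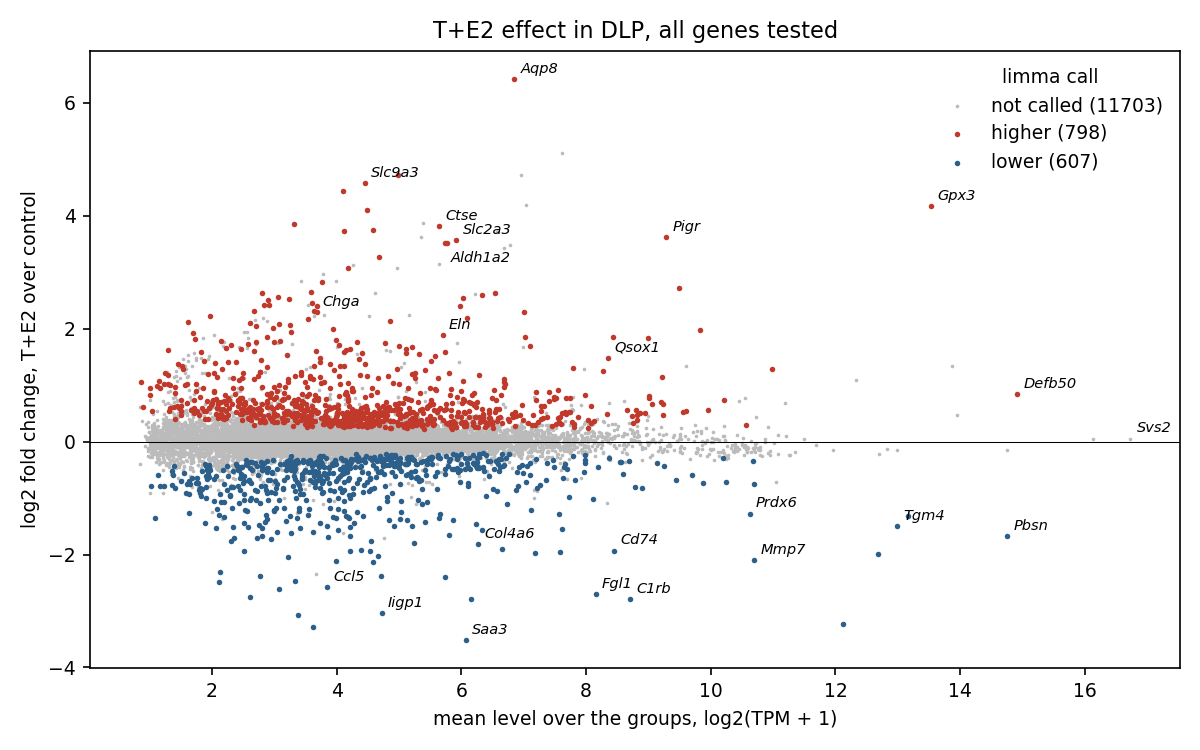
Each point is 1 of 13108 genes, with its mean level over the 2 groups, log2(TPM + 1), on the x axis and its log2 fold change, T+E2 over control, on the y axis. Red and blue mark the 798 and 607 genes called higher and lower, and Aqp8, Gpx3, Pbsn and Mmp7 stand out among named genes by size or by level.

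Several of the largest rises were in genes that move water, ions and polyamines. Aqp8, a water channel of glandular epithelia, was at 1.59, 1.73, 1.71 and 1.48 TPM in control and at 229.6, 249, 247 and 179 TPM with T+E2. The controls were close together at a low level and every treated library was far above them, a log2 fold change of 6.42 ± 0.10 (limma, adjusted p = 2e-10). Slc9a3, the apical sodium proton exchanger NHE3, was at 0.41, 0.80, 0.83 and 0.74 TPM and rose to 38.5, 56.1, 43.4 and 25.5 TPM, a log2 fold change of 4.58 ± 0.20. Of 48 water and ion transport genes, 10 rose and 3 fell, with a median of 0.16 (8 and 2 without T+E2 libraries 18 and 24). Aqp2, the vasopressin-regulated water channel of the kidney, rose from 1.31 ± 0.47 to 6.62 ± 1.66 TPM. The epithelial sodium channel subunit Scnn1a and the membrane carbonic anhydrase Car12 rose by 0.89 and 1.13 on the log2 scale. Aqp3, a water and glycerol channel, had 2.94 ± 2.78 TPM in control and 10.98 ± 4.37 TPM with T+E2. Its call was lost on omission of T+E2 library 1 or 24 or of control library 7, 9 or 10, where the log2 fold change was between 1.45 and 2.18. The 3 genes that fell were carbonic anhydrase 2 (Car2), the proton potassium pump Atp12a, from 83.6 ± 13.9 to 31.5 ± 6.59 TPM, and the chloride bicarbonate exchanger Slc26a3, from 29.3 ± 4.05 to 15.7 ± 0.63 TPM. The call of Car2 was lost on omission of T+E2 library 1, 18 or 24 or of control library 7, 8 or 10.

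Polyamines are made in very large amounts by the prostate. Of 19 polyamine genes, the transporters Atp13a4 and Atp13a3 rose and spermine synthase (Sms) was among the 2 that fell. Atp13a4 was at 0.64, 2.02, 2.23 and 1.09 TPM in control and 33.4, 35.1, 29.2 and 27.00 TPM with T+E2, so the groups were widely separate. Sms fell from 27.2 ± 3.09 to 16.9 ± 1.19 TPM. The facilitative glucose transporter Slc2a3 rose from 8.23 ± 1.14 to 111 ± 27.2 TPM and was called among 25 glycolysis and glucose entry genes. None of the others was called by limma, but 9 of the 25 were higher at an unadjusted p under 0.05 and 7 were called higher after rescaling without the most abundant genes.

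A retinoid enzyme and a receptor for retinol uptake moved in opposite directions. Aldh1a2, which makes retinoic acid from retinaldehyde, was at 6.91, 9.42, 6.85 and 6.82 TPM in control and at 103, 103, 115 and 66.99 TPM with T+E2, and its log2 fold change was 3.51 ± 0.16 (limma, adjusted p = 1.17e-06). Control library 8 was above the other 3 controls but below every treated library. Stra6, the receptor that takes up retinol from its plasma carrier, fell from 12.8, 7.92, 15.1 and 13.5 TPM to 3.29, 3.12, 4.93 and 4.45 TPM. The 2 groups of Stra6 values did not overlap. Of 17 retinoid genes, 2 rose and 1 fell, with 1 rise without T+E2 libraries 18 and 24 and on omission of each single library but T+E2 library 18.

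**Figure D2:**
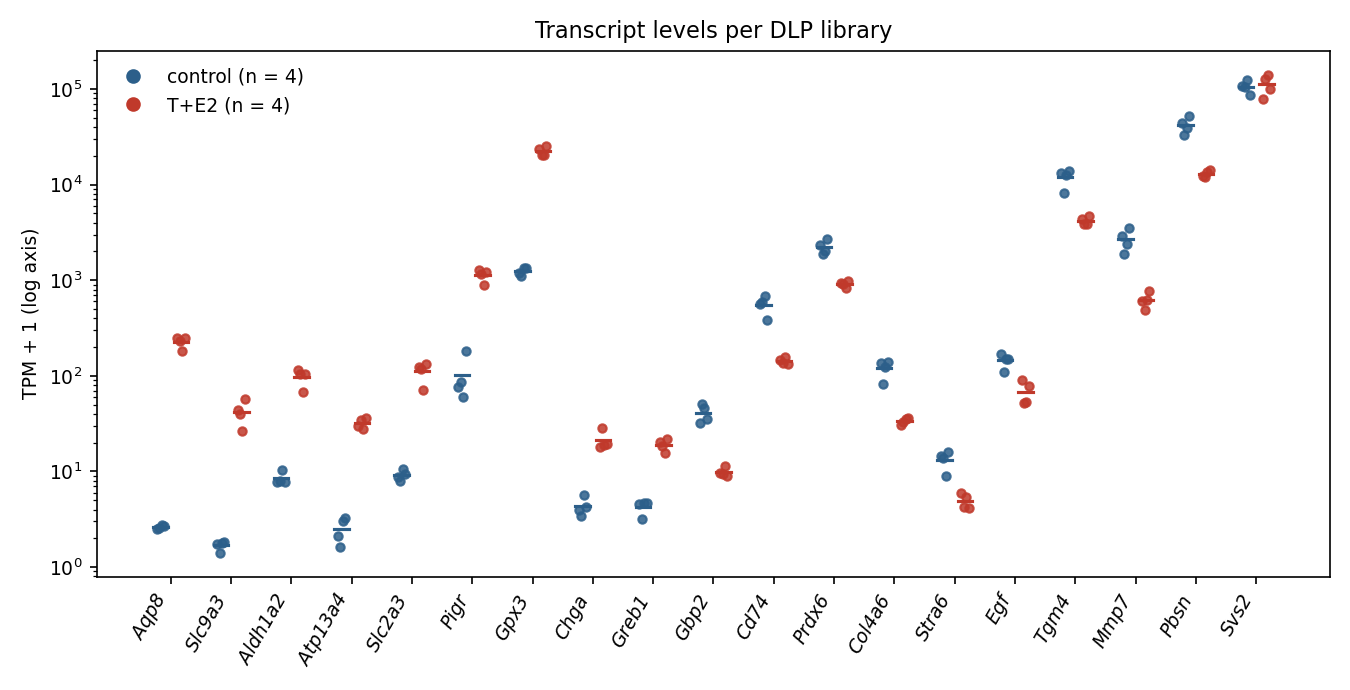
Points are the TPM + 1 of 19 genes in each of the 4 control (blue) and 4 T+E2 (red) DLP libraries on a log axis, and short lines are group means. The groups are separate for every gene plotted but Svs2, whose values overlap.

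Other large rises fell in several functions. Nrn1l, a gene related to the neuronal membrane protein neuritin, rose from 0.51 ± 0.19 to 31.9 ± 7.51 TPM, and Vtcn1, which encodes the T cell inhibitory ligand B7-H4, from 2.85 ± 0.98 to 31.3 ± 8.62 TPM. Wfdc6b and Spink11, both in families of secreted protease inhibitors, rose by 3.28 and 2.63 on the log2 scale, and the kallikrein Klk1b24 by 2.65. Memo1, Ncald, a neuronal calcium sensor, and Zbtb8b, a zinc finger gene, rose by 2.59, 2.54 and 2.53. The steroid and drug metabolism genes Ugt2b35 and Cyp3a57 reached 13.2 ± 3.44 and 110.0 ± 11.5 TPM, from 1.41 ± 0.48 and 23.6 ± 4.24 TPM. Qsox1, which forms disulphide bonds in secreted proteins, rose from 172 ± 12.6 to 481 ± 41.5 TPM. The G protein subunit gene Gng12, the ATP-gated channel gene P2rx6 and Prps2, a nucleotide synthesis enzyme, had some of the smallest p-values, with log2 fold changes of 2.29 ± 0.11, 1.62 ± 0.08 and 1.43 ± 0.08. Defb6, a beta-defensin, had 3.32 ± 2.89 TPM in control and 18.95 ± 7.33 TPM with T+E2, a call lost with robust hyperparameters and without T+E2 libraries 18 and 24. The histone gene Hist2h2aa2 was listed at 4.80, 3.58, 0 and 0 TPM in control and 55.3, 55.6, 77.2 and 49.5 TPM with T+E2, and it shares its sequence with a near-identical copy, so reads may be divided between them. Of 18 histone genes 7 rose and 1 fell. Without T+E2 libraries 18 and 24, 4 rose and the fall was lost, as it was without any 1 library other than T+E2 library 1 and control library 7.

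Among secreted products of the lobe, 4 of 16 prostate secretory genes fell and 1 rose, a rise lost without T+E2 libraries 18 and 24. Mmp7 (matrilysin), a secreted protease, was at 1894, 2401, 3542 and 2928 TPM in control and 486, 764, 601 and 625 TPM with T+E2. Tgm4, the transglutaminase that clots semen, was at 8212, 12757, 13801 and 13258 TPM in control and 3841, 4690.0, 4328 and 3832 TPM with T+E2. For both genes all treated libraries were below all controls, with a log2 fold change of -2.10 ± 0.19 for Mmp7 (limma, adjusted p = 6.3e-05 for Mmp7 and 0.00033 for Tgm4). Pbsn fell by 1.67 on the log2 scale. The falls of Pbsn and Tgm4 were not called when all 24 libraries of the 3 tissues set the spread. Defb50, a beta-defensin, had 22359 ± 4644 TPM in control and 39370.3 ± 4083 TPM with T+E2, and its rise lost its call after median-of-ratios rescaling and on omission of T+E2 library 1, 2 or 24 or of control library 8 or 10. Egf, the growth factor that many glands secrete, fell from 109.7, 149, 149 and 169.6 TPM in control to 51.3, 77.3, 88.5 and 51.9 TPM with T+E2.

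Several genes that modify secreted proteins fell. Of 24 glycosylation and mucin genes 6 fell and 1 rose (5 and 0 without T+E2 libraries 18 and 24). The gel-forming mucin Muc19 fell from 10.4 ± 4.79 to 1.12 ± 0.63 TPM. Fut9 and Fut2, which add fucose to glycans, fell from 9.34 ± 1.17 to 2.58 ± 0.32 TPM and from 70.3 ± 9.84 to 27.1 ± 4.97 TPM. The mucus protein Fcgbp and the glycan-extending enzyme B3gnt7 fell by 1.32 and 0.86 on the log2 scale. Of 36 genes of the unfolded protein response, which balances protein folding in the endoplasmic reticulum, 8 fell and 1 rose. Chac1, a glutathione-degrading target of this response, fell from 11.3 ± 0.81 to 3.13 ± 0.87 TPM. The transcription factor Atf4 and the membrane protein Herpud1 fell by 0.45 and 0.44. The list's falls numbered 5 on omission of T+E2 library 18 or 24 or of control library 10, and 3 without T+E2 libraries 18 and 24.

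Zinc is stored by the prostate for secretion. Of 25 citrate and zinc genes, 5 fell and 1 rose (3 and 1 without T+E2 libraries 18 and 24). Without T+E2 library 2, 3 rose. The zinc importer Slc39a8 fell from 86.2 ± 17.2 to 49.2 ± 7.24 TPM, and the zinc-binding metallothioneins Mt1 and Mt2 fell from 2075 ± 411 to 1221 ± 73.4 TPM and from 1511 ± 248 to 912 ± 53.8 TPM. Mt3, a metallothionein best known from brain, rose from 23.4 ± 4.28 to 38.4 ± 6.96 TPM. The calls of Mt2 and Mt3 were lost when all 24 libraries of the 3 tissues set the spread.

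The glutathione system shifted between enzymes. Of 41 glutathione and redox genes, 10 rose and 3 fell (4 and 3 without T+E2 libraries 18 and 24). The secreted peroxidase Gpx3 took 0.111% to 0.136% of all TPM in control libraries and 2.03% to 2.54% with T+E2. Prdx6, a peroxidase that uses glutathione and was more abundant than Gpx3 in control, was at 1898, 2042, 2667 and 2327 TPM in control and 918, 976, 942 and 831 TPM with T+E2. The highest treated library was far below the lowest control. The cytosolic peroxidase Gpx1 and glutathione synthetase (Gss) fell by 0.64 and 0.61 on the log2 scale. Glutathione reductase (Gsr) rose from 21.9 ± 1.16 to 52.5 ± 8.60 TPM, and the transferases Gsta2 and Gsta4 rose by 1.77 and 1.06.

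Several known oestrogen targets rose. Of 27 oestrogen-induced genes, 10 rose and none fell by limma, with a median of 0.16. Leaving out 1 library gave 7 to 10 rises, and leaving out T+E2 libraries 18 and 24 gave 5. At an unadjusted p under 0.05, 4 of the 27 were lower. Up to 2 were called lower under other settings. Greb1, a cofactor of the oestrogen receptor, was at 2.19, 3.65, 3.66 and 3.57 TPM in control and 17.5, 20.7, 19.1 and 14.7 TPM with T+E2. Wisp2, a secreted protein of the CCN family, rose from 2.10 ± 0.96 to 11.6 ± 4.61 TPM, and Rasd1, a small G protein induced by steroids, from 14.03 ± 2.34 to 47.8 ± 10.04 TPM. The progesterone receptor gene Pgr rose by 0.96, the EGF receptor ligand Areg by 0.95 and the oestrogen receptor gene Esr1 by 0.54. The prolactin receptor gene Prlr and its effector Stat5a rose by 0.58 and 0.91. The calls of Areg and Prlr were lost when all 24 libraries of the 3 tissues set the spread.

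Of 27 androgen-induced genes, 3 rose and 2 fell, with a median of 0.06. Beside Pbsn, the fatty acid ligase Acsl3 fell from 26.4 ± 3.08 to 14.9 ± 1.08 TPM. Dbi, which binds acyl-CoA, and the small GTPase Rhou rose by 0.64 and 0.62. Fkbp5, Tmprss2 and Hoxb13, all linked to androgen signalling, had log2 differences of 0.17 ± 0.12, 0.24 ± 0.12 and -0.32 ± 0.18 and were not called. The testosterone-converting reductases Srd5a1 and Srd5a2 were not called, at 0.29 ± 0.14 and -0.18 ± 0.12. Akr1c14, a 3-alpha-hydroxysteroid dehydrogenase that inactivates dihydrotestosterone, rose from 0.68 ± 0.20 to 4.42 ± 2.59 TPM.

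Interferon-stimulated genes fell. Interferons, cytokines of antiviral defence, bind cell surface receptors that act through Jak kinases and factors of the Stat and Irf families. These switch on genes that hold an interferon-stimulated response element (ISRE) in their promoters, among them antiviral GTPases and the genes of antigen presentation. The ISRE was sought here as GAAANNGAAA on both strands in RefSeq promoter windows (build GRCm38.p6), each from 250 bases before to 50 after the gene's start. Of the 16 interferon-inducible GTPases tested, 10 had a window, and 9 of these (90.0%) held a match, against 3.55% of the 10337 tested genes with a window. The shares were 10 of 20 antiviral effectors, 5 of 20 MHC class I genes (25.0%) and 51 of the 460 genes called lower with a window (11.1%), against 21 of 617 called higher (3.40%). A match is a run of letters and not a measured binding site. The windows below show the match in capitals with up to 25 bases on each side, on the strand of the gene, for 2 guanylate-binding proteins, 3 immunity-related GTPases, a ubiquitin-like effector, an antigen-processing protease and a chemokine whose transcripts fell. In that order they lie at chr3:142620579-142620638 (plus strand), chr3:142559974-142560033 (plus strand), chr11:58214888-58214947 (plus strand), chr11:58199497-58199556 (plus strand), chr11:48992289-48992348 (minus strand), chr4:156200856-156200915 (minus strand), chr3:95526740-95526799 (plus strand) and chr5:92349068-92349127 (minus strand). In Gbp3 and Isg15 further matches overlap the one shown.
Gbp2: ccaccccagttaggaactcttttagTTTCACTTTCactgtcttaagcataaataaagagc
Gbp3: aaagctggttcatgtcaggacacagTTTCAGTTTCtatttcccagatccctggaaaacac
Irgm2: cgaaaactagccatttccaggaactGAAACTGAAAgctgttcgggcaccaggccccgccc
Igtp: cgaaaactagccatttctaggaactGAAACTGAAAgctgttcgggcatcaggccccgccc
Tgtp1: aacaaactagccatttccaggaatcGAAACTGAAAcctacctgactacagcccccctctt
Isg15: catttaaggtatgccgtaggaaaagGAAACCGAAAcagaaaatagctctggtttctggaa
Ctss: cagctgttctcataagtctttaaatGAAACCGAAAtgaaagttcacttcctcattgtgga
Cxcl10: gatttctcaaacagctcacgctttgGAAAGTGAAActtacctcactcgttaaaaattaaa

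The match began 59 bases before the gene start in Gbp2, 45 in Gbp3, 64 in Irgm2, 34 in Igtp, 77 in Tgtp1, 72 in Isg15, 21 in Ctss and 213 in Cxcl10. In the interferon, MHC and chemokine lists 31 genes held a match, of which 23 were called lower. The other 8, Socs1 and B2m among them, were not called and had log2 differences between -0.49 and 0.32. The 23 are also part of the 51 genes called lower with a match, so these shares are not independent. The lists were written from textbook knowledge, and the part of interferon signalling in the falls was not tested. A Stat5 element (TTCNNNGAA) was sought in the same windows. It was found in 6 of 10 GTPases, 8 of 20 antiviral effectors, 2 of 20 MHC class I genes and 835 of the 10337 tested genes.

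Of 16 interferon-inducible GTPases, which attack the vacuoles of intracellular pathogens, 15 fell and none rose by limma, and 0 were higher at an unadjusted p under 0.05, with a median of -1.64 on the log2 scale. Each fit without 1 library, and the fit without T+E2 libraries 18 and 24, also called 15 of them lower. Gbp2 was at 50.03, 44.8, 34.1 and 30.9 TPM in control and 8.47, 7.99, 8.65 and 10.4 TPM with T+E2. Gbp3 was at 13.04, 15.1, 13.6 and 12.4 TPM in control and 3.68, 3.86, 3.80 and 3.66 TPM with T+E2. In both genes the treated values were close together and far below every control, with log2 fold changes of -2.03 ± 0.15 and -1.61 ± 0.08 (limma, adjusted p = 1.35e-05 and 1.56e-06). Igtp and Irgm2 fell by 2.14 and 1.94, Irgm1 by 1.26, and Mx2 alone was not called, at -0.39 ± 0.15. Iigp1 fell by 3.04. Tgtp1 and Tgtp2, by 2.60 and 2.46, are near-identical copies that can share reads, as can members of the Gbp cluster.

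Of 25 other antiviral effectors, 17 fell and none rose by limma, with 0 higher at an unadjusted p under 0.05. Without T+E2 libraries 18 and 24, 13 fell. The nucleic acid sensor Zbp1 fell from 8.05 ± 1.39 to 1.33 ± 0.18 TPM, Oasl2 from 13.8 ± 2.09 to 5.33 ± 1.11 TPM, and the RNA-binding Ifit1 and Ifit3 by 1.21 and 1.03. Isg15, the ubiquitin-like modifier, fell from 14.4 ± 4.15 to 6.30 ± 0.72 TPM. Of 20 interferon signalling genes, 9 fell and none rose by limma, with 3 higher at an unadjusted p under 0.05. The transcription factors Stat2, Irf1, Irf7 and Irf9 fell by 0.79, 1.05, 1.19 and 0.55. The gamma interferon receptor chain Ifngr1 fell by 0.49, while the alpha receptor chain Ifnar2 and the kinases Jak2 and Tyk2 were not called, at 0.23 ± 0.08, 0.25 ± 0.08 and -0.09 ± 0.07, nor were Ifnar1 and Jak1. Jak2 was called higher without control library 8. Socs1, a feedback inhibitor of the pathway, was also not called, at 0.32 ± 0.13. Il18bp, which neutralises interleukin 18, fell from 26.7 ± 6.36 to 8.58 ± 0.84 TPM, and the lymphocyte cytokine Il15 by 0.73. The inflammatory caspase Casp1 fell by 0.93.

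**Figure D3:**
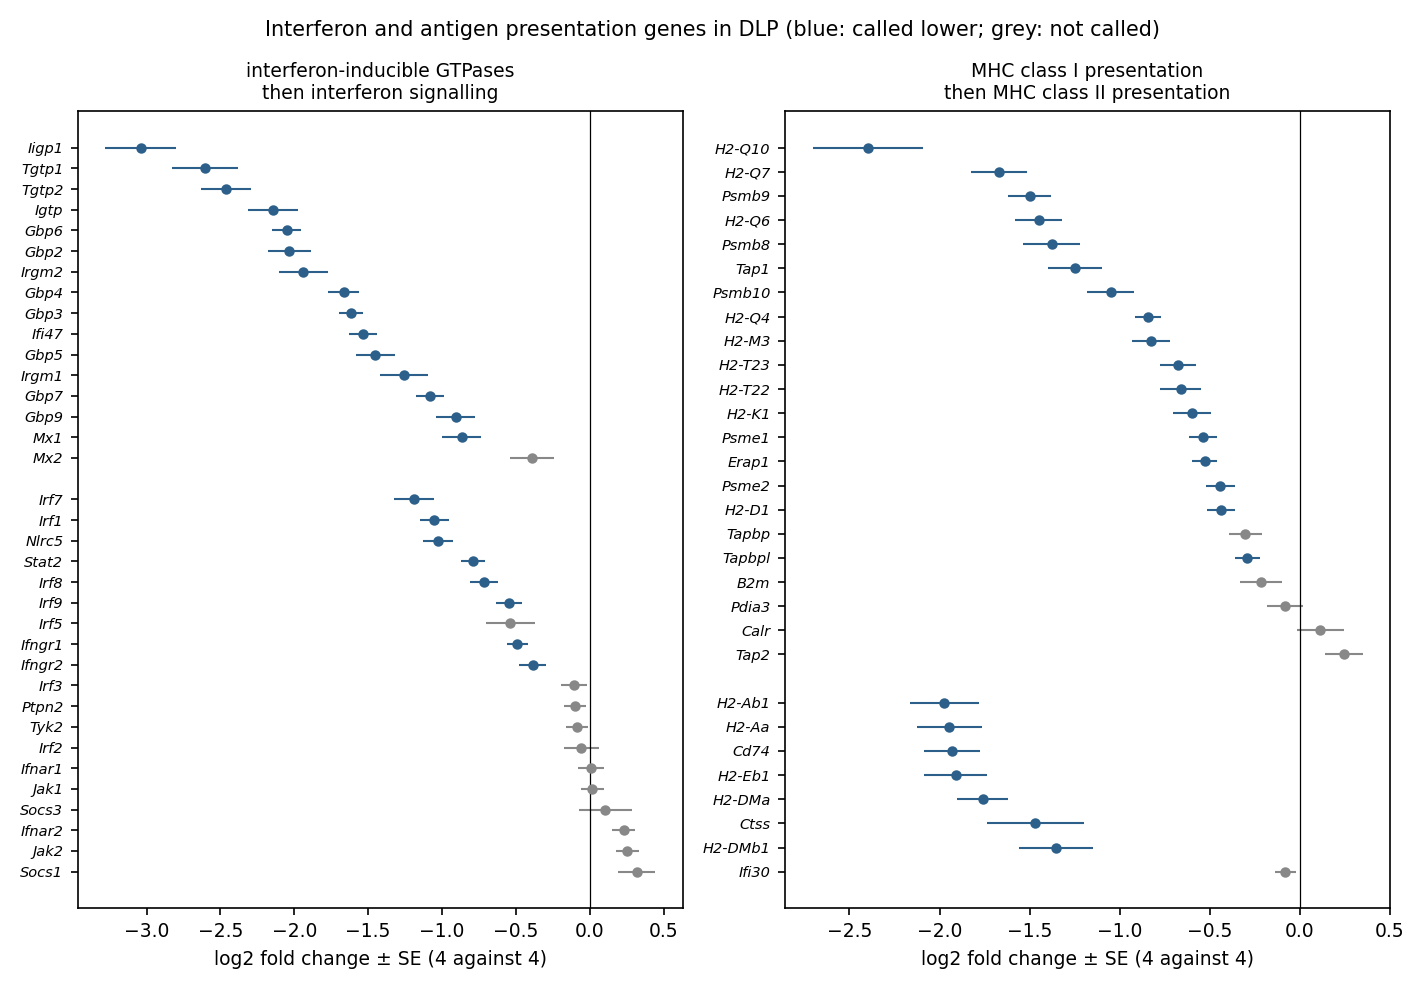
Points are log2 fold changes in DLP with standard errors (4 T+E2 against 4 control libraries) of genes tested in 4 lists, and blue marks those called lower. All 15 GTPases called lie below 0, and none of the genes shown was called higher by limma.

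Antigen presentation fell with these genes. Of 22 MHC class I genes 17 fell, and of 8 MHC class II genes 7 fell, with medians of -0.63 and -1.83 and no member called higher by limma. At an unadjusted p under 0.05, 1 class I gene and 0 class II genes were higher. Nlrc5, the transactivator of class I genes, fell from 7.15 ± 0.91 to 2.98 ± 0.21 TPM. The immunoproteasome subunits Psmb8, Psmb9 and Psmb10, which cut antigens into peptides, fell, Psmb8 and Psmb10 by 1.38 and 1.05 and Psmb9 from 43.5 ± 7.07 to 14.7 ± 1.91 TPM. The peptide transporter Tap1 fell from 32.1, 25.4, 31.5 and 20.5 TPM in control to 11.5, 11.6, 11.8 and 8.45 TPM with T+E2, and its partner Tap2 was not called, at 0.24 ± 0.10, though it was called higher without T+E2 library 24. The light chain B2m was not called, at -0.22 ± 0.12, and its sign was positive after quantile normalization. In the Q region, H2-Q10 fell by 2.40 and H2-Q7 by 1.67, but members of this family are so alike that their reads can be shared. In class II, the invariant chain Cd74 was at 595, 679, 380.2 and 566 TPM in control and 135, 131, 144 and 157 TPM with T+E2. The groups were widely separate (log2 fold change -1.93 ± 0.15, limma adjusted p = 2.62e-05). H2-Ab1 fell by 1.97 and Ctss, the protease that trims the invariant chain, by 1.47. Ifi30 alone was not called, at -0.08 ± 0.06.

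Some markers of leukocytes fell, but 9 pan-leukocyte and 13 macrophage and monocyte genes were not called. Of 12 pan-leukocyte genes 3 fell, of 18 macrophage and monocyte genes 5, and of 4 dendritic cell genes 2. Only 2 of 17 listed T and NK cell genes were tested, and both fell. Of 6 B and plasma cell genes 2 rose, a count of 0 on omission of T+E2 library 1 or 24 or of control library 7 or 10. No neutrophil or mast cell gene of 8 was called by limma, with 1 lower at an unadjusted p under 0.05. The pan-leukocyte median was -0.55 and the summed level of the list was 1945 to 2811 TPM with T+E2 and 1833 to 2481 TPM in control, so its ranges overlapped. The macrophage list had a median of -0.52 and sums of 409 to 642 TPM with T+E2 and 489 to 1431 TPM in control. The dendritic cell list had sums of 1069 to 1160 TPM with T+E2 and 909 to 1109 TPM in control. Ptprc, which marks leukocytes, was at 8.65, 12.6, 5.25 and 10.1 TPM in control and 3.82, 3.42, 4.14 and 3.76 TPM with T+E2. The monocyte gene Ly6c2 fell from 6.71 ± 2.77 to 1.17 ± 0.35 TPM, the dendritic cell factor Batf3 from 5.13 ± 1.57 to 1.51 ± 0.70 TPM, and the T cell kinase Lck from 3.06 ± 0.49 to 1.14 ± 0.21 TPM. Coro1a and the phagocytic receptor Mertk fell by 0.87 and 0.82. Csf1r, the receptor that macrophages need to survive, was not called, at -0.12 ± 0.22, and its sign turned without control library 8. Without control library 9, which had the lowest Ptprc of the controls, 8 pan-leukocyte and 11 macrophage genes were called lower. Leaving out any other library but T+E2 library 18 gave 2 or 3 macrophage genes. Pan-leukocyte falls numbered 2 on omission of T+E2 library 24 or of control library 7, 8 or 10, and T and NK cell falls 1 without control library 8, 9 or 10. Without T+E2 libraries 18 and 24 there was 1 fall in the T and NK cell list and 1 rise in the B and plasma cell list. In whole tissue, fewer cells of a type and less RNA per cell cannot be told apart. The part of leukocyte number in the fall of the interferon genes was not tested.

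Chemokines and complement genes moved both ways. Ccl5, a T cell chemokine, was at 21.1, 34.7, 11.5 and 27.6 TPM in control and 4.11, 2.41, 2.77 and 2.42 TPM with T+E2. The interferon-induced Cxcl9 and Cxcl10 fell from 6.33 ± 2.02 to 0.45 ± 0.25 TPM and from 10.7 ± 1.84 to 2.65 ± 1.22 TPM. Ccl28, a chemokine of mucosal surfaces, rose from 0.26 ± 0.15 to 4.18 ± 2.39 TPM. Pigr, the receptor that carries immunoglobulin into secretions, rose by 3.62 on the log2 scale. The complement proteases C1rb and C1ra fell from 729.9 ± 117 to 105 ± 23.1 TPM and from 119 ± 18.6 to 39.3 ± 4.29 TPM, and as close relatives they can share reads. C7, a component of the membrane attack complex, rose by 0.86. The acute phase genes Saa3 and Fgl1 fell by 3.51 and 2.70, the protease inhibitor Serpinb1a by 1.92, and the ribonuclease gene Ang by 1.34.

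**Figure D4:**
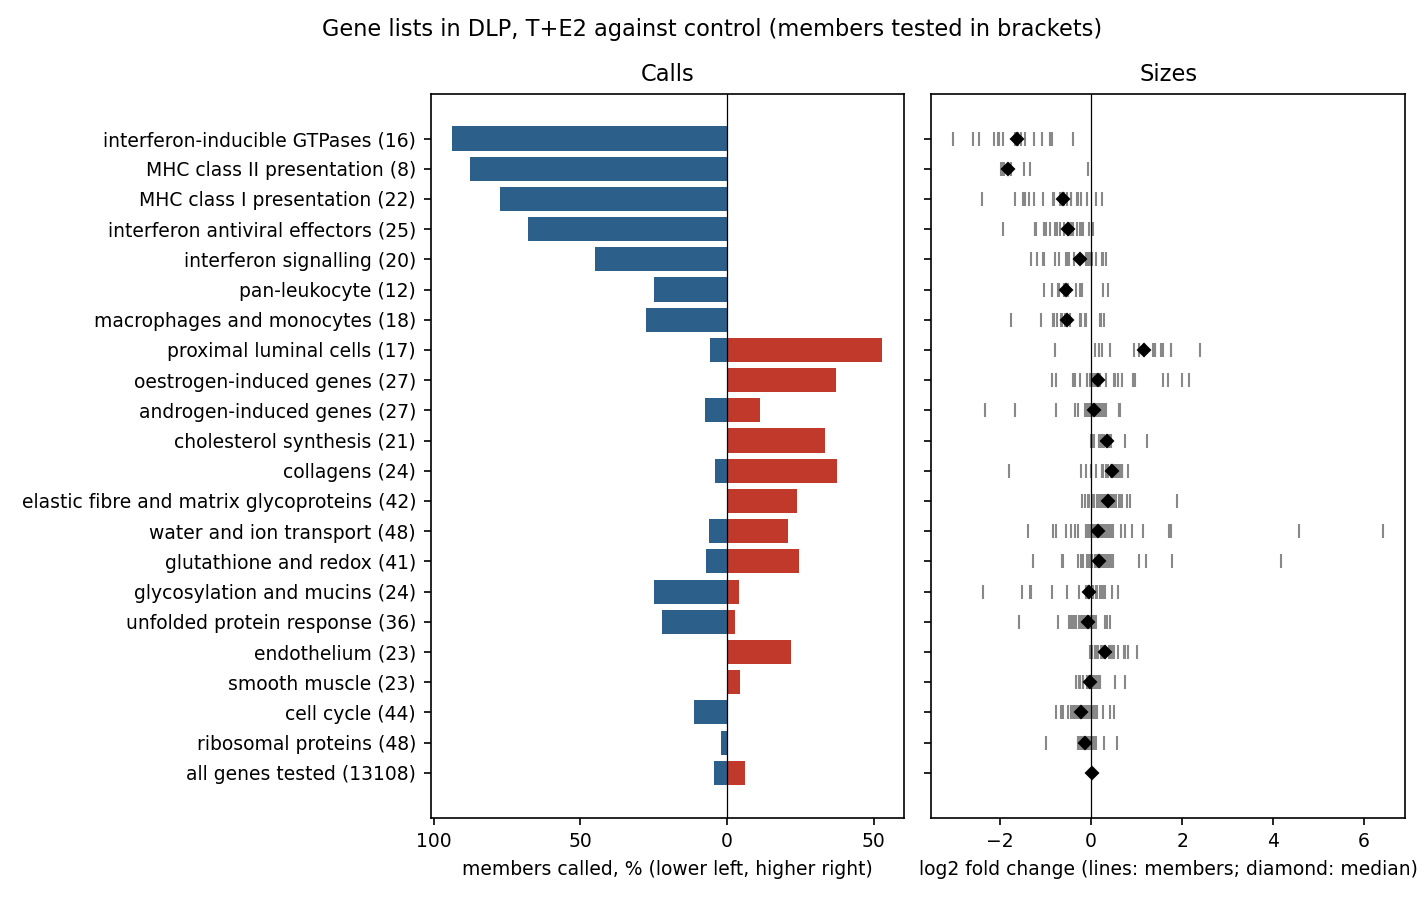
The left panel gives the percentage of tested members of 21 gene lists, and of all genes, called lower (blue) or higher (red) in DLP. The right panel gives each member's log2 fold change (grey lines) and the list median (diamond), and members of the GTPase and MHC class II lists all lie below 0, while 6 of 20 interferon signalling genes lie above it.

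Genes of proximal luminal cells, the epithelium near the urethra, were higher. Of 17 such genes 9 rose and 1 fell, with a median of 1.16. The surface protein Psca rose from 10.6, 34.2, 10.9 and 20.9 TPM in control to 82.1, 47.1, 148 and 139 TPM with T+E2. The groups did not overlap, but values differed widely within each. T+E2 libraries 18 and 24 and control library 8 had the most Psca of their groups, and also the most skeletal muscle TPM. The keratin Krt7 and the phosphatase inhibitor Ppp1r1b rose by 1.59 and 1.16. The keratin Krt4 and the secreted inhibitor Wfdc2 had log2 fold changes of 1.75 ± 0.42 and 1.54 ± 0.42. The call of Krt4 was lost on omission of T+E2 library 1 or 24 or of control library 7 or 9, and that of Wfdc2 on omission of T+E2 library 1, 18 or 24 or of control library 7 or 10. The list had 5 rises without T+E2 library 1, T+E2 library 24 or control library 7, and 3 without T+E2 libraries 18 and 24, when Krt7 and Ppp1r1b were also not called. Of 11 urothelial genes, which mark the lining of the bladder and urethra, 3 uroplakins rose. The call of Upk2 was lost on omission of T+E2 library 24 or of control library 7 or 10. Upk1a rose from 149 ± 22.2 to 542 ± 75.7 TPM, and Upk3a was not called, at 0.82 ± 0.65. The summed urothelial list was 308 to 350.3 TPM in control and 734 to 893 TPM with T+E2. The part of carried-over urethral tissue in the urothelial and proximal luminal rises was not tested.

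Among transcription factors of prostate epithelium, 2 of 29 rose and 3 fell, with a median of 0.01 and 15 of the 29 above 0. Of all tested genes, 6.09% were called higher and 4.63% lower. The list's counts were 1 and 2 without T+E2 libraries 18 and 24, and 3 and 5 without T+E2 library 2. Klf5 and Sox4, both expressed in progenitor cells, rose from 4.41 ± 1.37 to 9.52 ± 2.51 TPM and from 8.16 ± 0.96 to 12.4 ± 1.39 TPM. Spdef, a luminal secretory factor, Gata2, a zinc finger factor, and the Ets factor Ehf fell by 0.60, 0.56 and 0.53. The calls of Klf5 and Gata2 were lost without T+E2 libraries 18 and 24. Of 22 basal cell genes 5 rose and 1 fell (0 and 0 without T+E2 libraries 18 and 24), with a median of 0.19. At an unadjusted p under 0.05, 10 of the 22 were higher and 1 lower. Leaving out 1 library gave 2 to 8 basal rises. Of 26 luminal keratin and adhesion genes 5 rose and 3 fell (2 and 2 without T+E2 libraries 18 and 24), with a median of 0.09. The keratins Krt5, Krt14, Krt8 and Krt18 were not called, at 0.45 ± 0.16, 0.10 ± 0.13, -0.03 ± 0.09 and -0.19 ± 0.08. The basal cell factor Trp63 was not called, at 0.20 ± 0.09. Krt5 passed the test as higher if T+E2 library 2 or control library 9 was omitted. Chga (chromogranin A), a granule protein of neuroendocrine cells, was at 2.39, 4.72, 3.30 and 2.92 TPM in control and 27.7, 18.3, 17.2 and 17.8 TPM with T+E2. All treated libraries exceeded all controls, and the other 6 neuroendocrine genes tested were not called, although 2 of the 7 were without T+E2 library 18, T+E2 libraries 18 and 24 or control library 8.

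Part of the cholesterol pathway rose. Of 21 cholesterol synthesis genes 7 rose and none fell by limma, with a median of 0.34. At an unadjusted p under 0.05, 0 of the 21 were lower. Fdft1, the squalene synthase gene, had 29.6, 31.9, 34.6 and 34.2 TPM in control and 76.8, 74.2, 79.1 and 78.9 TPM with T+E2. The count was 4 without T+E2 library 1, 2 or 18, 2 on omission of T+E2 library 24 or of control library 7, 8 or 10, 9 without control library 9, and 2 without T+E2 libraries 18 and 24. Soat1, which esterifies cholesterol for storage, rose from 6.07 ± 0.89 to 16.9 ± 2.12 TPM. The sterol sensor Insig1 and the carrier Stard4 rose by 0.57 and 0.44, and Stard4 lost its call without T+E2 libraries 18 and 24. Fatty acid synthase (Fasn) rose from 31.6 ± 3.59 to 61.3 ± 6.93 TPM. A sterol regulatory element (TCACNCCAC, both strands) was found in the window of 1 of 16 cholesterol synthesis genes and of 1.30% of tested genes.

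Matrix genes of the stroma rose, and 4.35% of smooth muscle genes were called, against 10.7% of all tested genes. Of 24 collagen genes 9 rose and 1 fell, and of 42 elastic fibre and matrix glycoprotein genes 10 rose and none fell by limma, with medians of 0.47 and 0.37. At an unadjusted p under 0.05, 0 of the 42 were lower. Elastin (Eln) was at 16.4, 29.3, 16.1 and 19.9 TPM in control and 55.6, 56.3, 132 and 81.7 TPM with T+E2. Lox, which cross-links elastin and collagen, the matrix protein Sparc and the latent TGF beta binder Ltbp4 rose by 0.85, 0.66 and 0.61. The basement membrane collagens Col4a1 and Col4a2 rose by 0.67 and 0.61, whereas Col4a6, another chain of the same family, was at 80.8, 122, 139 and 134 TPM in control and 31.5, 34.8, 29.5 and 34.3 TPM with T+E2. Every Col4a6 value with T+E2 was below every control. Plod2, which hydroxylates collagen lysines, rose from 8.79 ± 0.88 to 23.9 ± 4.08 TPM. Collagen rises numbered 4 on omission of T+E2 library 1 or 18 or of control library 10, 5 on omission of T+E2 library 24 or of control library 9, 3 without control library 7, and 1 without T+E2 libraries 18 and 24, when Sparc, Col6a2 and Col4a2 were not called. Rises in the matrix glycoprotein list numbered 5 without T+E2 library 1 or 18, 5 without both T+E2 libraries 18 and 24, and 6 without control library 7 or 9. Col1a1 was not called, at 0.67 ± 0.23. Of 23 endothelial genes 5 rose, among them Vwf and Plvap, by 0.74 and 0.82, and the count was 3 without T+E2 library 18, 24 or both and 10 on omission of T+E2 library 2 or of control library 8. Of 23 smooth muscle genes 1 rose, Ppp1r14a, a call lost on omission of T+E2 library 1 or 18 or of control library 7 or 9, and smooth muscle actin (Acta2) was at 1529.8 ± 139 TPM in control and 1467 ± 176 TPM with T+E2.

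Several signalling genes known from prostate development changed. Of 40 Wnt genes 8 rose and 2 fell. The non-canonical ligand Wnt5a was at 9.01, 12.2, 10.9 and 11.8 TPM in control and 21.6, 23.1, 25.9 and 23.01 TPM with T+E2, and the secreted regulator Sfrp2 rose from 20.1 ± 2.39 to 33.4 ± 4.56 TPM. The coreceptor Lrp5 rose by 0.46 and Nkd1, a Wnt target and inhibitor, fell by 0.59, a call lost without T+E2 libraries 18 and 24. The list had 4 rises on omission of T+E2 library 18 or of control library 7 or 10 and 5 without T+E2 library 1, 2 or 24. Without both T+E2 libraries 18 and 24 it had 4 rises, and both falls were lost. The Notch target Hey1 fell from 8.43 ± 2.03 to 4.16 ± 0.65 TPM. Shh, the epithelial hedgehog ligand, rose by 0.67, a call lost without T+E2 libraries 18 and 24, and the stromal budding factor Fgf10 was not called, at -0.18 ± 0.10. Igfbp2, which binds insulin-like growth factors, rose from 116 ± 6.88 to 219.6 ± 55.9 TPM, and Pappa2, a protease of such binding proteins, by 0.75. Irs1, an adaptor of the insulin receptor, fell by 0.54. The growth factor Igf1 had a log2 fold change of 0.51 ± 0.13, and its call was lost on omission of T+E2 library 1, 18 or 24 or of control library 7, 8 or 9. Errfi1, a feedback inhibitor of the EGF receptor, rose by 0.58, and the stress cytokine Gdf15 fell from 9.54 ± 1.88 to 2.90 ± 0.48 TPM. In prostaglandin metabolism, Ptgds and Ptges, which make prostaglandins D2 and E2, rose by 1.58 and 0.71, while the receptor Ptger3 and the cyclooxygenase Ptgs1 fell by 1.19 and 0.58. The call of Ptgds was lost when all 24 libraries of the 3 tissues set the spread, and that of Ptgs1 without T+E2 libraries 18 and 24. The immediate early factor Jund rose by 0.86.

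Genes of the cell cycle were not called higher. Of 44 cell cycle genes, 5 fell and none rose by limma, so 11.4% were called, against 10.7% of all tested genes. At an unadjusted p under 0.05, 19 were lower and 1 was higher. The median was -0.23, and 33 of the 44 lay below 0. Mki67, the proliferation antigen, was at 8.77, 7.04, 7.20 and 5.64 TPM in control and 5.15, 5.74, 5.59 and 5.29 TPM with T+E2 and was not called, though it was called lower without control library 10. Tk1, which salvages thymidine, fell from 11.4 ± 2.74 to 6.73 ± 0.74 TPM, though not without T+E2 libraries 18 and 24. Top2a and Birc5 had log2 fold changes of -0.62 ± 0.15 and -0.78 ± 0.19. The call of Top2a was lost on omission of T+E2 library 1, 2 or 24 or of control library 7, 8 or 9, and that of Birc5 on omission of T+E2 library 1 or 24 or of control library 7 or 9. The list's falls numbered 1 on omission of T+E2 library 1 or 24 or of control library 9, 2 without control library 7, and 2 without T+E2 libraries 18 and 24.

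Of 17 skeletal muscle genes, which mark neighbouring striated muscle, Pvalb and Myh4 were called higher. All 17 had a log2 fold change above 0, with a median of 2.62, and 15 were higher at an unadjusted p under 0.05. Pvalb was at 0, 10.1, 0.38 and 0 TPM in control and 22.6, 12.4, 68.2 and 58.5 TPM with T+E2, and Myh4 at 0.09, 13.6, 0.02 and 0.11 TPM and 22.3, 3.71, 76.3 and 66.7 TPM. Control library 8 stood above the other controls in both genes, and above T+E2 library 2 in Myh4. The call of Myh4 was lost on omission of T+E2 library 1, 18 or 24 or of control library 7, 9 or 10. Without T+E2 library 2 all 17 were called higher, as were 10 on omission of control library 8. With all 24 libraries of the 3 tissues in the fit 15 were called higher, and the calls of Pvalb and Myh4 were both lost without T+E2 libraries 18 and 24 and with robust hyperparameters. The skeletal actin gene Acta1 was not called, at 0.72 ± 0.29.

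The T+E2 effect in DLP was tested against that in AP and in urethra by limma interaction contrasts over 24 libraries and 13469 genes. It differed from AP in 10.5% of genes, 441 more positive and 967 more negative in DLP, and from urethra in 3.64%, 332 more positive and 158 more negative. After median-of-ratios rescaling these splits were 815 and 837 for AP and 363 and 344 for urethra. After quantile normalization they were 615 and 708, and 400 and 493.

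Several genes had effects of opposite sign in the 2 lobes. Stra6 fell in DLP and had a log2 fold change of 0.81 in AP, a log2 difference of -2.23 ± 0.26 (adjusted p = 3.54e-06). Mt3 rose in DLP and had -1.89 in AP, a difference of 2.58 ± 0.42. The rise of Mt3 within DLP was not called when all 24 libraries set the spread. Sva, a seminal vesicle antigen, had -2.11 ± 0.55 in DLP and 5.75 in AP, a difference of -7.85 ± 0.70. The fall of Sva in DLP was not called on omission of T+E2 library 1 or of control library 7, 9 or 10. Ccl28, Aqp3, Sfrp2 and Defb6 had values of 0.00, -0.16, -0.21 and 0.11 in AP, with differences of 1.92 ± 0.38, 1.92 ± 0.51, 0.92 ± 0.24 and 2.34 ± 0.60. Mean Ccl28, Aqp3 and Defb6 in AP were under 1 TPM in both groups. Aqp2 and Akr1c14 rose more in DLP than in AP, by 1.07 ± 0.29 and 1.32 ± 0.30, and Slc26a3 fell more, by 0.71 ± 0.16. The muscle genes Pvalb and Myh4 had -2.30 and -0.998 in AP. The seminal vesicle list had medians of -0.17 in DLP and 2.32 in AP, and 4 of its 11 genes differed, all more negative in DLP. The skeletal muscle list had medians of 2.43 in DLP and -0.48 in AP. Of its 18 genes tested here 10 differed, all more positive in DLP. The part of unequal amounts of these tissues between libraries was not tested. Top2a was -2.28 in AP, a difference of 1.66 ± 0.22.

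Several rises were larger in AP than in DLP. The log2 differences, DLP minus AP, were -4.41 ± 0.51 for the protease Ctse, -3.26 ± 0.35 for Slc2a3, -2.41 ± 0.34 for Pigr, -2.30 ± 0.50 for Gpx3, -2.21 ± 0.33 for Slc9a3 and -1.57 ± 0.22 for Aldh1a2. Wnt5a differed by -2.48 ± 0.24. The difference for Aqp8 was -1.67 ± 0.70 and did not pass the test (adjusted p = 0.144).

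In urethra, Aldh1a2, Atp13a4, Chga and Upk1a had log2 fold changes of -0.32, 0.65, 0.00 and -0.06, and DLP exceeded them by 3.83 ± 0.22, 3.08 ± 0.39, 2.29 ± 0.36 and 1.92 ± 0.22. Aqp2 and Akr1c14 also differed, by 1.61 ± 0.29 and 1.56 ± 0.30. Mmp7 and Stra6 fell in DLP and had -0.19 and 0.49 in urethra, differences of -1.90 ± 0.32 and -1.90 ± 0.26. Saa3 fell in DLP and had 2.15 in urethra, a difference of -5.66 ± 1.19. Of the cholesterol synthesis genes, 16 differed from urethra, all more positive in DLP. Fdft1, Insig1 and Fasn were -0.29, -0.58 and -0.10 in urethra, with differences of 1.51 ± 0.13, 1.15 ± 0.20 and 1.04 ± 0.18.

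The GTPases had negative list medians in all 3 tissues, at -1.64 in DLP, -1.17 in AP and -0.89 in urethra. None of the GTPases differed between DLP and AP at adjusted p under 0.05, and 3 of them had an unadjusted p under 0.05. Gbp2 fell more in DLP than in urethra, by 0.94 ± 0.25, as did Irf1, Psmb9, Tap1 and Cxcl10, by 0.66 ± 0.15, 1.14 ± 0.29, 0.96 ± 0.25 and 1.40 ± 0.34. In all, 6 MHC class I genes and 1 of the GTPases fell more in DLP than in urethra.

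**Figure D5:**
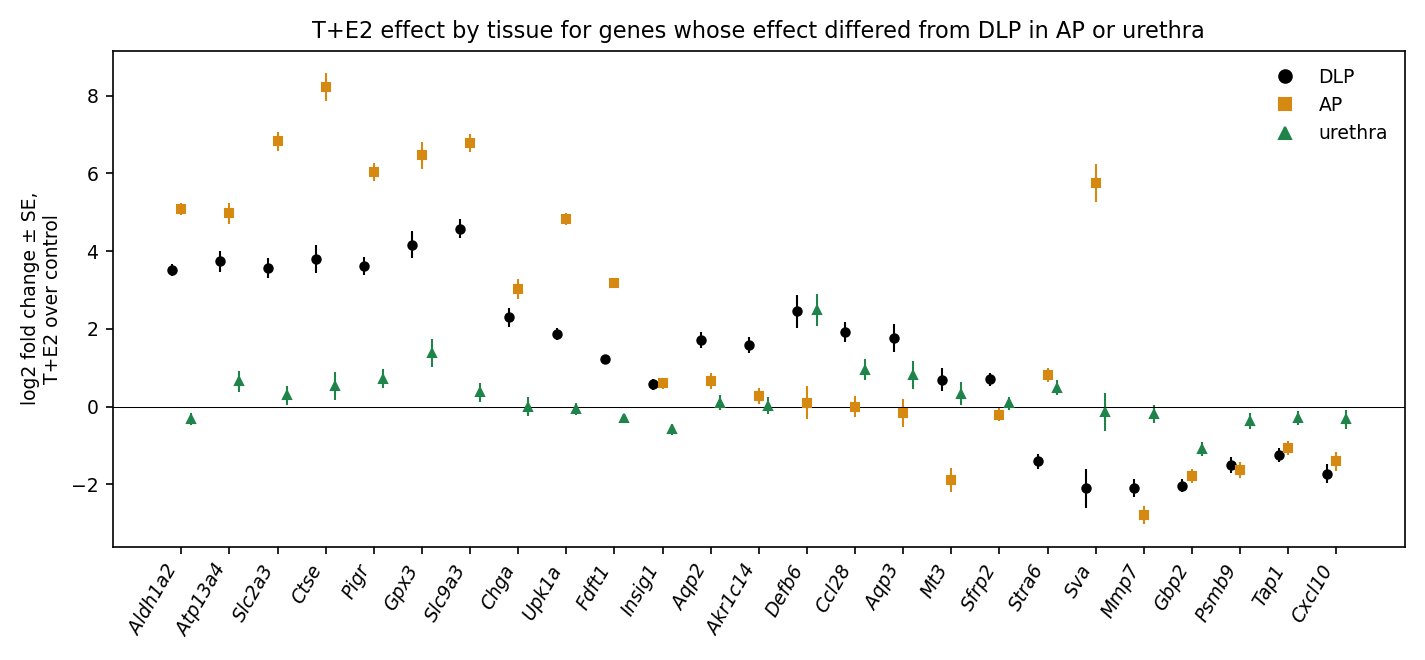
Log2 fold changes, T+E2 over control, of 25 genes in DLP (black circles), AP (orange squares) and urethra (green triangles), with standard errors of the fit over 24 libraries. Stra6 and Mt3 lie on opposite sides of 0 in DLP and AP, and Aldh1a2 and Chga lie above 0 in both lobes and near 0 in urethra.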

How the data were processed

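The deposited table holds TPM values made by the authors, 1 column for each library, for 13780 genes. Per the submitters' processing notes the tools named are STAR, RSEM, edgeR and FastQC and the build is mm9, with no versions or roles. The notes give no filter on genes, and a table restricted to expressed genes sets the background of every percentage. TPM keeps no depth, so no counting interval is given. TPM is relative, so a few very abundant transcripts can shift all others, which the rescaling alternatives address.

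From these values log2(TPM + 1) was computed for the genes at 1 TPM or more in at least 4 of the 8 DLP libraries, and the groups were compared with limma 3.58.1 (R 4.3.3, trended prior, two-sided, Benjamini-Hochberg adjustment over all 13108 genes). Differences between tissues were interaction contrasts over 24 libraries. Groups were taken from the labels, and the 8 libraries of other groups of the series were not used here. On simulated data the comparison recovered 182 of 200 genes changed 2-fold and called 7 unchanged genes.

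Gene lists were written from textbook knowledge, and the comparison, the lists and the genes were chosen with earlier results of these data known. Named genes were the 20 largest non-overlapping rises and falls at a mean of 10 TPM or more, the 10 smallest p-values among the rest, up to 6 called members of each list and a set given whatever their outcome. Members that were not called are given only as values beside their list. Some genes that these choices name are not reported here. Promoter windows were RefSeq's of build GRCm38.p6, matched by symbol or unique synonym for 10337 tested genes. That build differs from the one named for the table, so coordinates apply to the windows only.

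Alternatives were pseudocounts of 0.1 and 5, no filter and a filter of 5 TPM, and median-of-ratios, quantile and abundant-gene rescaling. Others were limma without trend, with robust hyperparameters or with array weights, Sbp as a covariate, all 24 libraries in the fit, and a replicate block. Each DLP library was also left out in turn, as were T+E2 libraries 18 and 24 together. Figures used Python 3.11.15 and matplotlib 3.10.9.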

Additional observations from a re-analysis of the deposited data

Results flagged for a closer look

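A library far from the other 3 of its group, by Dixon's test at the 95% level, was found 24 times among 400 groups of 4 values, and chance gives about 1 in 20. Control library 7 was highest in Sbp (47958 TPM, the others 52.3 to 1573) and Svs4 (17745 TPM, the others 4009 to 5729). It was lowest in Serpinb1a (21.9 TPM, the others 34.9 to 36.5), Slc39a8 (60.5 TPM, the others 92.9 to 96.5), Greb1 (2.19 TPM, the others 3.57 to 3.66), Acsl3 (21.8 TPM, the others 27.8 to 28.1), Ehf (239 TPM, the others 308 to 317) and Ptgs1 (48.7 TPM, the others 66.1 to 68.8). Control library 8 was highest in Aldh1a2 (9.42 TPM, the others 6.82 to 6.91), Tgtp2 (19.9 TPM, the others 14.1 to 15.1), Upk2 (13.7 TPM, the others 4.92 to 6.37), Pvalb (10.1 TPM, the others 0 to 0.38), Myh4 (13.6 TPM, the others 0.02 to 0.11) and Upk3a (15.8 TPM, the others 1.06 to 2.43). T+E2 library 1 was highest in B3gnt7 (13.7 TPM, the others 10.3 to 10.9), Nlrc5 (3.29 TPM, the others 2.86 to 2.92), Areg (2.64 TPM, the others 1.63 to 1.77) and Chga (27.7 TPM, the others 17.2 to 18.3). Control library 9 was highest in Car12 (3.81 TPM, the others 1.99 to 2.17) and Mt2 (1882 TPM, the others 1361 to 1401). T+E2 library 24 was highest in Upk2 (23.1 TPM, the others 14.5 to 15.5). It was lowest in Tap1 (8.45 TPM, the others 11.5 to 11.8). T+E2 library 18 was highest in Scnn1a (13.4 TPM, the others 8.28 to 8.78). T+E2 library 2 was lowest in Plvap (22.99 TPM, the others 30.6 to 31.04).

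The T+E2 effect was tested between DLP and AP for every gene, and these genes of the text passed limma's interaction contrast with Benjamini-Hochberg adjustment. The log2 fold change was more positive in DLP than in AP for Ccl28 (1.92), Aqp3 (1.92), Mt3 (2.58), Sfrp2 (0.92), Defb6 (2.34), Akr1c14 (1.32), Aqp2 (1.07), Pvalb (6.396), Myh4 (4.74) and Top2a (1.66). It was more negative in DLP for Stra6 (-2.23), Sva (-7.85), Slc26a3 (-0.71), Gpx3 (-2.30), Slc9a3 (-2.21), Aldh1a2 (-1.57), Pigr (-2.41), Slc2a3 (-3.26), Ctse (-4.41) and Wnt5a (-2.48). For Sva, Pvalb and Myh4 the part of unequal amounts of seminal vesicle or muscle tissue was not tested.

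The T+E2 effect was tested between DLP and urethra for every gene, and these genes of the text passed limma's interaction contrast with Benjamini-Hochberg adjustment. The log2 fold change was more positive in DLP than in urethra for Aldh1a2 (3.83), Atp13a4 (3.08), Chga (2.29), Upk1a (1.92), Fdft1 (1.51), Insig1 (1.15), Fasn (1.04), Aqp2 (1.61) and Akr1c14 (1.56). It was more negative in DLP for Stra6 (-1.90), Mmp7 (-1.90), Gbp2 (-0.94), Irf1 (-0.66), Psmb9 (-1.14), Tap1 (-0.96), Cxcl10 (-1.40) and Saa3 (-5.66).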

How the results depend on the processing

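The 1405 genes called in DLP became 2241 with quantile normalization, 2180 with array weights and 717 without T+E2 libraries 18 and 24. The count without each library in turn was 948 to 1335. The genes whose effect differed from AP, 1408 in number, were 1112 to 1584 without each DLP library in turn. The 490 that differed from urethra were 371 to 582 in such fits and 893 with quantile normalization. No AP or urethra library was left out. The cause of these shifts was not tested, beyond the fewer libraries of the left-out fits. The share of called genes that were higher was 56.8%, and it was 43.8% with quantile normalization, 46.5% with array weights and 43.4% without control library 7. Other totals over all genes stayed within 1.5 times, but counts in 1 direction did not always. Rises in DLP, 798 in number, were 1234 after rescaling without the most abundant genes and 504 without T+E2 library 1, and the 607 falls were 1015 after median-of-ratios rescaling and 395 without control library 10. After median-of-ratios rescaling the 441 genes more positive in DLP than in AP were 815 and the 158 more negative than in urethra were 344. Over all settings, falls were 11 to 19 in the antiviral list, 3 to 13 in the unfolded protein list and 2 to 6 among secretory genes, and rises were 2 to 12 in cholesterol synthesis, 1 to 13 in collagens and 5 to 17 in matrix glycoproteins. With a replicate block over equal library numbers, 1515 genes differed from AP and 571 from urethra. The labels do not say whether equal numbers mark 1 animal. Correlations of same-numbered libraries were between -0.15 and 0.21 and over 0.1 in 4 of 10 pairs, all of them control. Those of differently numbered libraries lay between -0.26 and 0.27. These values cannot settle whether equal numbers mark 1 animal. The main tests between tissues did not use the numbers as pairs and took the 24 libraries as independent, which is unverified. The 2 DLP groups share no number.

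Of 172 called genes named in the text, 160 kept their call without each library in turn, 139 under every alternative, and 0 changed sign. For 6 of them (Slc9a3, Nrn1l, Cxcl9, Ccl28, Areg and Akr1c14) the filter removed the gene from 4 of the 8 fits. A pseudocount of 5 moved 43 of the 172 fold changes over 1.5-fold, and 20 of the 164 calls that could be tested were lost without T+E2 libraries 18 and 24. Genes not called changed sign: Acta2 was 0.016 and B2m 0.51 with quantile normalization. Svs4 was 0.072 with quantile normalization, 0.32 with array weights and 0.16 without T+E2 libraries 18 and 24. With 1 library left out Svs4 lay between -0.50 and 0.36, Svs2 between -0.074 and 0.21, Sbp between -0.28 and 3.26, Krt8 between -0.10 and 0.013, and Csf1r between -0.33 and 0.033. The Sbp covariate could not be fitted for Sbp itself. Depth is unknown, so the precision of low levels such as those of Nrn1l and Ccl28 in control cannot be given.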

Other observations

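Transcripts known only by a clone name, which the choice of named genes left out, included some of the largest changes. They were chosen after their values were seen. A630095E13Rik was at 5339, 7914, 11549.7 and 7610.1 TPM in control and 631, 795, 1001 and 969.6 TPM with T+E2, so all treated libraries were far below all controls. 4930526L06Rik rose from 7.83 ± 1.70 to 99.6 ± 16.3 TPM and 1700019N19Rik from 0.24 ± 0.0808 to 17.7 ± 6.47 TPM.

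Called genes made up 2.08% of the ribosomal protein list and 2.94% of the oxidative phosphorylation list, against 10.7% of all tested genes. Of 48 ribosomal protein genes 1 fell and none rose by limma, with a median of -0.14 and 14 lower and 1 higher at an unadjusted p under 0.05. After rescaling without the most abundant genes 8 were called lower and 1 higher, and the fall was lost without T+E2 libraries 18 and 24 and on omission of each single library but control library 7. Of 34 oxidative phosphorylation genes 1 rose, and 29 had a log2 fold change above 0. After rescaling without the most abundant genes 9 were called higher, and without T+E2 libraries 18 and 24 the rise was lost. No Schwann cell or adipocyte marker of 11 and 10 was called by limma, with 1 adipocyte marker lower at an unadjusted p under 0.05 and 0 Schwann cell markers.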
